A study of Homo sapiens with 6 samples.

Results

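The 10 genes described here are targets and effectors of canonical WNT signalling, namely CTNNB1, LEF1, TCF7, TCF7L1, TCF7L2, AXIN2, NKD1, RNF43, LGR5 and DKK1. They were taken from a fixed list of symbols, and each was found once among the 60664 genes of the count files. This list and those used below were chosen with earlier results of these data known. Expression was measured by RNA-seq of polyadenylated RNA from D283 Med, a human medulloblastoma line of the Group 3 subtype with an amplified MYC gene. All 6 libraries came from cells transfected with an LNA GapmeR, a short antisense oligonucleotide whose pairing with an RNA leads to its cleavage by RNase H. The GapmeR was scrambled in 3 libraries (labelled SCR, the controls), and the other 3 libraries (labelled KD, the knockdown) received one aimed at lncMB3, a long non-coding RNA. All libraries are of this 1 line, and the level of lncMB3 itself was not analysed here, so directions rest on the group labels. Nothing in the labels ties the 3 libraries of a group to separate cultures, and p-values here measure only the spread between libraries, which may be technical.

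In canonical WNT signalling, a WNT ligand binds a Frizzled receptor and an LRP co-receptor at the cell surface and stops a cytoplasmic destruction complex, built on AXIN and APC, from marking beta-catenin for degradation. Beta-catenin then enters the nucleus and joins TCF/LEF factors on DNA, which turn from repressors into activators of target genes. Several targets, among them AXIN2, NKD1, RNF43 and DKK1, encode inhibitors of the pathway and so form negative feedback. In medulloblastoma, stabilising mutations of CTNNB1 define the WNT subtype, which is distinct from Group 3. Beta-catenin is controlled mainly through protein stability, so the level of its transcript does not measure the activity of the pathway.

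Total counts ran from 7765826 in knockdown library 1 to 20035834 in control 2, so low genes were measured least precisely in knockdown library 1. Mitochondrially encoded genes took 5.38% to 6.37% of counts. The labelled subtype was checked against its markers. All 9 Group 3 markers were measured, with summed levels of 3523 to 3816 CPM (counts scaled to library size) in controls, against 3209 to 3357 CPM after knockdown. Of these 9, 6 fell and 1 rose. Of all 14673 genes tested 15.9% were called in each direction, for comparison here and with the lists below. The falls were IMPG2, EYS, NRL, MAB21L2, OTX2 and CRX, from a log2 change of -0.28 for OTX2 to -0.81 for EYS. GABRA5 rose (log2 change 0.41, adjusted p = 0.00384). MYC, the highest of them in CPM, which is not divided by gene length, was at a mean of 1177 CPM in controls. It was not called (log2 change 0.03, adjusted p = 0.826). Of the SHH markers 2 of 5 were tested and neither was called, with a summed level of 22.6 to 26.3 CPM over all libraries and ATOH1 at 0. Of the Group 4 markers 3 of 6 were tested and 1, UNC5D, fell (adjusted p = 0.0268), with a summed level of 10.4 to 13.7 CPM. Of the 5 markers of the WNT subtype, WIF1, DKK2 and EMX2 were at 0 in every library, GAD1 had a single count, and TNC averaged 1.37 ± 0.314 CPM in controls, against 2.37 ± 0.539 CPM after knockdown (SD, n = 3 each; adjusted p = 0.0582). Markers of other cell types were low: the fibroblast list summed to 19.8 to 22.7 CPM in controls, against 14.4 to 18.2 CPM after knockdown, with COL3A1 at 0 throughout. In that list 2 of 5 genes passed the low-count filter, COL1A1 and DCN, and both fell (adjusted p = 0.0315 and 0.0335). Summed endothelial markers reached at most 2.52 CPM, immune markers at most 2.45 CPM and glial markers at most 4.86 CPM in any library, and CDH5, CD3E and MBP were at 0. The part of these markers in the results below was not tested.

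Promoter sequences of the members are shown first, because TCF7L1 and TCF7L2 were both lower in the knockdown and DKK1 had no counts. RefSeq start-site windows (GRCh38.p14, 250 bases before and 50 after each start) were found for 7 of the 10 genes, in 11 windows, whereas AXIN2, NKD1 and LGR5 are named only. They were searched on both strands for the TCF/LEF core motif CTTTGNN, where each N was either A or T, a word whose copies cannot overlap on the same strand. A match was found in 3 of the 11 windows, in TCF7, TCF7L2 and DKK1, beside 13.8% of all 35116 windows in the table. The DKK1 window held 2 matches, and 1.58% of all windows held 2 or more. The 3 stretches printed here run 5′ to 3′ on the plus strand, stop just before the start site and carry the motif in capitals. They are chr2:85133142-85133391 for TCF7L1, with no match, chr10:113126383-113126632 for an internal start of TCF7L2, with 1 match, and chr10:52314031-52314280 for DKK1, with 2 matches.
TCF7L1: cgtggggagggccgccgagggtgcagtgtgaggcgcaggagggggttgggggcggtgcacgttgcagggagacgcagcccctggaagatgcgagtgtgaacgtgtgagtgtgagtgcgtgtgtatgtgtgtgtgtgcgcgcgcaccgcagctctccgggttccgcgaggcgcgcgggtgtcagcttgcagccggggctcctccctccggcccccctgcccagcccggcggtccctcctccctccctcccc
TCF7L2: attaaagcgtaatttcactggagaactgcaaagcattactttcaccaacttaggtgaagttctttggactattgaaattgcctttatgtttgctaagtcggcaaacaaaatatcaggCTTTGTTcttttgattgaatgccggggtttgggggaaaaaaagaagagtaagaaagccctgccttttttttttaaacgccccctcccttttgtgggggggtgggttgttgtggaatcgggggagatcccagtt
DKK1: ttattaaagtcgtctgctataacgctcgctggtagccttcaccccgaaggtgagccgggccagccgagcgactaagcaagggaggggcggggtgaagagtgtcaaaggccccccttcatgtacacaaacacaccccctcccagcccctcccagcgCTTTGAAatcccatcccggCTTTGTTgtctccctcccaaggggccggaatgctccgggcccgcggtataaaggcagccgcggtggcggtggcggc
The match of TCF7L2 begins 133 bases before an internal start, and no match was found in the windows of its other 2 RefSeq starts. A match is a description of these letters, and it does not show that a factor binds there.

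In the comparison of knockdown with scrambled control, LGR5, TCF7L2 and TCF7L1 fell and CTNNB1 rose, by 1.22-fold to 1.58-fold, whereas AXIN2, NKD1 and TCF7 were not called and LEF1, DKK1 and RNF43 were not expressed above the counting floor. Of the 10 genes 7 passed the low-count filter. Of these 7, 3 were lower and 1 was higher at an adjusted p of 0.05 by edgeR's quasi-likelihood test. Of all 14673 genes tested 31.7% were called, 15.9% in each direction. The groups did not overlap in 6 of the 7 genes, beside 46% of all genes tested. The median log2 change of the 7 genes was -0.28, and that of all genes tested was 0.00 (0.000282 before rounding). No test was made of these genes as a set.

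**Figure D1:**
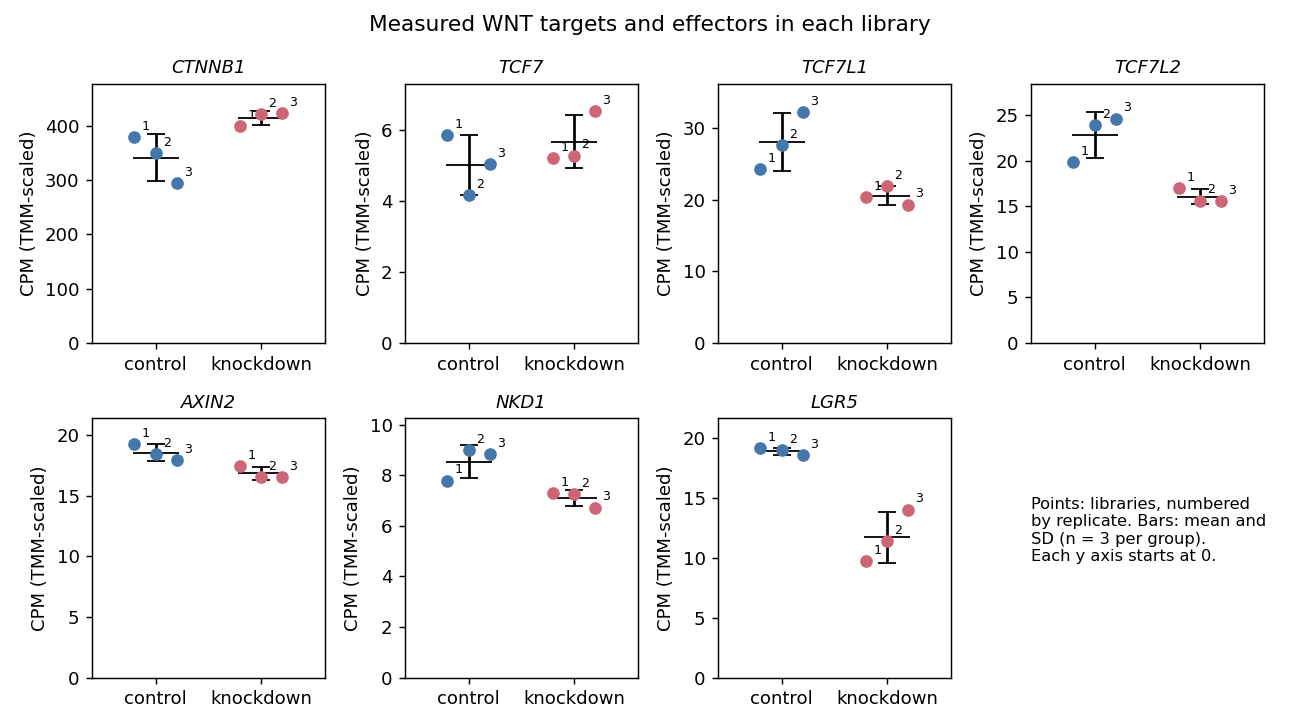
TMM-scaled CPM (y axes, each from 0) of the 7 measured genes in controls 1 to 3 (blue) and knockdown libraries 1 to 3 (red), with the mean and SD of each group (n = 3). The groups overlap for TCF7 and for none of the other 6, and for its level the gap is widest in LGR5, where the highest knockdown library reaches 14.0 CPM and the lowest control 18.6 CPM.

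CTNNB1 (chromosome 3, 41194741 to 41260096, plus strand, GRCh38) encodes beta-catenin, the effector of the pathway. It was at 380, 349 and 295 CPM in controls 1 to 3, against 400, 421 and 423 CPM after knockdown. All knockdown libraries lay above all controls, but control 1 came within a small margin of knockdown library 1, and the controls spread more than the knockdown libraries. The mean went from 341 ± 42.9 to 415 ± 13.0 CPM (SD, n = 3 each), a rise of 1.22-fold (log2 change 0.28 ± 0.10, SE; adjusted p = 0.0360). This call was kept in 1 of the 6 fits that left out a library: without control 1 the adjusted p was 0.0105. With control 2 left out it was 0.0952, and with control 3 left out 0.180. Fits that lacked knockdown library 1, 2 or 3 gave 0.0631, 0.0594 and 0.120. The log2 change without control 3 was 0.19, and with upper-quartile scaling it was 0.23 (adjusted p = 0.0771), within a range of adjusted p from 0.0105 to 0.180 over all alternatives. In the same 6 fits LGR5 and TCF7L2 kept their call in 6 and TCF7L1 in 5.

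The TCF/LEF factors are the DNA-binding partners of beta-catenin. TCF7L1, known mainly as a repressor of WNT targets, lies on chromosome 2 (85133410 to 85310388, plus strand). It was at 24.3, 27.7 and 32.3 CPM in the controls, against 20.4, 22.0 and 19.3 CPM after knockdown. The groups were apart, with control 1 nearest the knockdown libraries and control 3 farthest from them. TCF7L1 fell 1.36-fold (mean 28.1 ± 4.02 CPM against 20.6 ± 1.32 CPM; log2 change -0.45 ± 0.11, adjusted p = 0.00892). Without control 3 its log2 change was -0.34 and the call was lost (adjusted p = 0.0528, the highest over all alternatives, with 0.000645 as the lowest).

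TCF7L2, which acts as an activator or a repressor depending on beta-catenin, lies on chromosome 10 (112950250 to 113167678, plus strand). Its levels were 19.9, 24 and 24.6 CPM in the controls, against 17.0, 15.6 and 15.6 CPM after knockdown. Control 1 was again the lowest control, and it lay above every knockdown library. The fall was 1.43-fold (mean 22.8 ± 2.56 CPM against 16.1 ± 0.822 CPM; log2 change -0.52 ± 0.11, adjusted p = 0.00337). With any 1 library left out the adjusted p of TCF7L2 was at most 0.0235, and its log2 change lay between -0.60 and -0.46.

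TCF7, a factor best known from T cells and itself a WNT target, lies on chromosome 5 (134114711 to 134151865, plus strand). It was at 5.85, 4.16 and 5.03 CPM in the controls, against 5.20, 5.27 and 6.52 CPM after knockdown. The groups overlapped, and the difference was not called (log2 change 0.20 ± 0.18, 95% interval -0.18 to 0.57, adjusted p = 0.418). Exons of SKP1, on the opposite strand, overlap those of TCF7, and SKP1 had 1950 to 5664 counts a library against 40 to 125 for TCF7. Whether reads were assigned by strand is not given in the labels, which leaves the level of TCF7 uncertain. LEF1 (chromosome 4, 108047545 to 108168956, minus strand), a factor that mostly activates WNT targets, had 0 counts in all 6 libraries. With 3 counts as the limit that a count of 0 allows, this bounds LEF1 at 0.147 CPM in the deepest library and 0.390 CPM in knockdown library 1, for counting error only.

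Per kilobase of exon, TCF7L1 made up most of the TCF/LEF transcripts. It took 60.9%, 61.2% and 63.8% of the summed counts per kilobase of the 4 factors in controls 1 to 3, against 60.3%, 63.6% and 59.7% after knockdown. TCF7L2 took 32.7%, 34.7% and 31.9% in the controls, against 33.0%, 29.7% and 31.5% after knockdown. TCF7 took 6.43%, 4.03% and 4.36% in the controls, against 6.74%, 6.69% and 8.82% after knockdown. The share of TCF7 was higher in every knockdown library than in every control, by 2.48 percentage points in the mean, and the shares of TCF7L1 and TCF7L2 overlapped between the groups. An exact 2-sided permutation test over 3 against 3 libraries cannot give a p below 0.1, which is the value for TCF7 (0.3 when adjusted over the 3 factors with counts). The p was 0.5 for TCF7L1 and 0.3 for TCF7L2 (0.5 and 0.45 adjusted). The transcripts of TCF7L1 and TCF7L2 fell in CPM while their shares overlapped between the groups. TCF7 itself was not called in CPM (log2 change 0.20, edgeR adjusted p = 0.418), so its higher share stood beside the falls of TCF7L1 and TCF7L2. The exon overlap with SKP1 leaves the share of TCF7 uncertain as well.

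**Figure D2:**
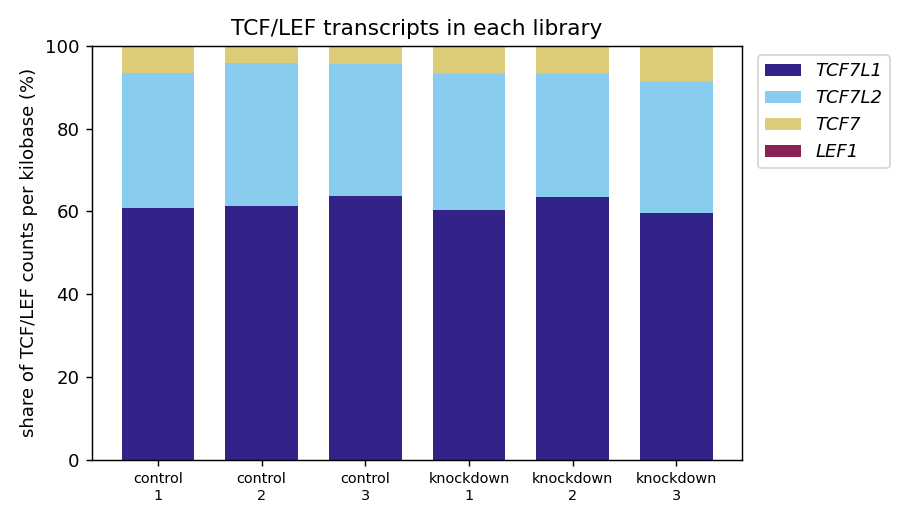
Share of each TCF/LEF factor (y axis, percent of their summed counts per kilobase of exon) in the 6 libraries. TCF7L1 takes 59.7% to 63.8% in each library, TCF7 takes 4.03% to 8.82%, and LEF1 is at 0.

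Among the feedback inhibitors, AXIN2 and NKD1 were measured and RNF43 and DKK1 were near or at 0. AXIN2 (chromosome 17, 65528563 to 65561647, minus strand), a scaffold of the destruction complex and the most widely used readout of WNT activity, was at 19.3, 18.4 and 17.9 CPM in the controls, against 17.4, 16.5 and 16.5 CPM after knockdown. The 3 knockdown libraries lay just under the lowest control. The difference, from 18.5 ± 0.697 to 16.8 ± 0.535 CPM, was not called (log2 change -0.14 ± 0.10, 95% interval -0.36 to 0.07, adjusted p = 0.290).

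NKD1 (chromosome 16, 50548330 to 50649249, plus strand), an inhibitor that binds Dishevelled, was at 7.79, 9.0 and 8.83 CPM in the controls, against 7.28, 7.25 and 6.72 CPM after knockdown. The groups did not overlap, with control 1 nearest the knockdown libraries. The difference was not called (log2 change -0.28 ± 0.13, 95% interval -0.56 to 0.01, adjusted p = 0.132). In the fits without 1 library the adjusted p of NKD1 stayed above the threshold, with 0.0789 without control 1 as the lowest.

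RNF43 (chromosome 17, 58352500 to 58417595, minus strand), a ubiquitin ligase that removes Frizzled receptors from the membrane, had 0 counts in the 3 controls and 0, 1 and 2 counts in knockdown libraries 1 to 3. These counts are at or under the floor of 3, so no change is given. SUPT4H1 overlaps the span of RNF43 on the same strand, shares exon bases with it and had 579 to 1607 counts a library. DKK1 (chromosome 10, 52314296 to 52318042, plus strand), a secreted antagonist that binds the LRP co-receptors, had 0 counts in all 6 libraries, within the same limit as LEF1.

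LGR5 (chromosome 12, 71439770 to 71586310, plus strand), a receptor for R-spondins that marks WNT-dependent stem cells of the gut and other tissues, had the largest fitted change of the 7 genes. It was at 19.1, 19.0 and 18.6 CPM in the controls, against 9.76, 11.4 and 14.0 CPM after knockdown. The controls lay close together and the knockdown libraries were spread, with library 3 the highest of them. LGR5 fell 1.58-fold (mean 18.9 ± 0.304 CPM against 11.7 ± 2.15 CPM; log2 change -0.66 ± 0.13, adjusted p = 0.00161). The call was kept with each library left out in turn, with log2 changes from -0.82 without knockdown library 3 to -0.57 without knockdown library 1. Of genes that overlap LGR5, TSPAN8 on the opposite strand had 4 to 37 counts a library and no exon in common with it. Across the 6 libraries the genes whose log2 CPM followed LGR5 most closely were BSDC1 (Pearson r = 0.995), CBR4 (0.994) and CASP10 (0.994), given as a description over 6 libraries that share the 2 groups. A correlation above 0.9 with LGR5 was reached by 579 genes (3.95% of those tested).

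**Figure D3:**
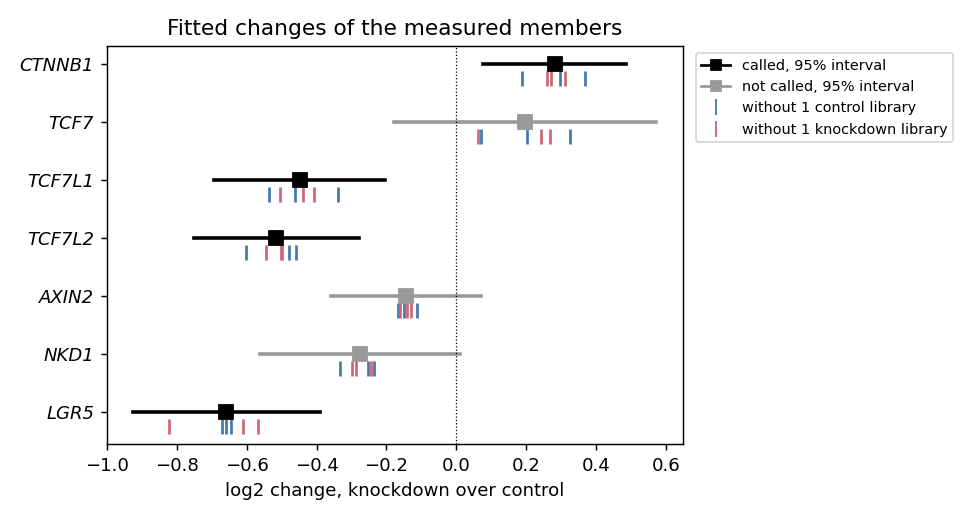
Fitted log2 change of the knockdown over the control (x axis) with its 95% interval for the 7 measured genes, black where called and grey where not, and the changes with 1 library left out as ticks (blue for a control, red for a knockdown library). The intervals of LGR5, TCF7L2, TCF7L1 and CTNNB1 exclude 0, and no tick crosses 0 for any of the 7 genes.

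Levels of different genes can be set against each other only per length. In CPM per kilobase of annotated exon, the controls gave CTNNB1 28.6 ± 3.60 and TCF7L1 6.36 ± 0.910. Next came LGR5 at 3.60 ± 0.0579, AXIN2 at 3.54 ± 0.133 and TCF7L2 at 3.39 ± 0.380, which did not differ beyond their spread. TCF7 at 0.498 ± 0.0843 and NKD1 at 0.490 ± 0.0377 did not differ beyond it either, and LEF1, DKK1 and RNF43 were at 0. In the knockdown the order was CTNNB1 at 34.8 ± 1.09, TCF7L1 at 4.66 ± 0.299, AXIN2 at 3.22 ± 0.102, TCF7L2 at 2.39 ± 0.122 and LGR5 at 2.23 ± 0.410. By annotated exon length AXIN2, which was level with LGR5 and TCF7L2 in the controls, stood above both in the knockdown. TCF7L2 and LGR5 did not differ beyond their spread there. TCF7 was at 0.563 ± 0.0735 and NKD1 at 0.407 ± 0.0180. The order depends on the length used. Per kilobase of the longest transcript, TCF7L2 was at 5.52 ± 0.620 in the controls, above AXIN2 at 4.35 ± 0.164 and LGR5 at 4.10 ± 0.0659. By that length TCF7 was at 0.939 ± 0.159 in the controls, above NKD1 at 0.499 ± 0.0384. Levels in the knockdown were not taken by that length, so AXIN2 is shown above TCF7L2 and LGR5 there by annotated exon length only. In the knockdown AXIN2 was at 16.8 ± 0.535 CPM and TCF7L2 at 16.1 ± 0.822 CPM, and their longest transcripts are 4259 and 4136 bases.

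Other genes of the pathway were read from 7 lists by role and the list of WNT-subtype markers, which together hold 120 further genes, 82 of them tested. Of these 82, 10 rose and 15 fell, which is 30.5% called, close to the 31.7% of all genes, with a median log2 change of -0.05.

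Among ligands and the factors for their secretion 9 of 21 genes were tested, of which 4 fell and 1 rose. WNT5A, a ligand mostly of beta-catenin-independent signalling, was at 7.67, 7.24 and 7.26 CPM in the controls, against 3.25, 3.70 and 2.87 CPM after knockdown. Every knockdown library lay below every control, and WNT5A fell 2.25-fold (adjusted p = 0.000239). WNT2B, a canonical ligand, fell 1.79-fold from 12.6 ± 1.35 to 6.87 ± 1.24 CPM (adjusted p = 0.000924), and WNT5B 1.57-fold (adjusted p = 0.0286). WLS, the carrier that brings WNT proteins to the cell surface, fell 1.17-fold (adjusted p = 0.0388). WNT5B was not called by DESeq2 (adjusted p = 0.0847), and WLS was not called without a low-count filter (0.0621). WNT10B, another canonical ligand, rose 1.41-fold from 9.62 ± 1.5 to 13.4 ± 0.833 CPM (adjusted p = 0.0129). The 12 ligands that were not tested had at most 4 counts in a library, among them WNT1 and WNT3A.

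Of 15 receptors and co-receptors tested, 3 rose and 3 fell. FZD8, a Frizzled receptor, was at 2.75, 4.40 and 3.86 CPM in the controls, against 8.98, 6.94 and 7.87 CPM after knockdown, a rise of 2.11-fold (adjusted p = 0.000883). The called Frizzled genes moved apart, since FZD1 rose 1.38-fold (adjusted p = 0.00280) and FZD7 1.19-fold (adjusted p = 0.0341) while FZD2 fell 1.40-fold (adjusted p = 0.00265). The remaining Frizzled genes that were tested were not called. FZD7 was not called with upper-quartile scaling (adjusted p = 0.0958) or without a low-count filter (0.0891), so the rise of FZD7 depends on these settings. ROR2, the receptor tyrosine kinase that WNT5A binds, fell 1.54-fold from 21.9 ± 2.02 to 14.5 ± 1.45 CPM (adjusted p = 0.00125). PTK7, a related co-receptor, fell 1.26-fold (adjusted p = 0.0103). In the R-spondin axis 0 of 4 tested genes were called by edgeR, with 0 at an unadjusted p under 0.05 and 0 called by DESeq2 or limma-voom. LGR4, the relative of LGR5 that binds the same ligands, was at 16.6, 15.2 and 15.9 CPM in the controls, against 18.1, 16.5 and 18.0 CPM after knockdown (log2 change 0.14 ± 0.10, adjusted p = 0.328). ZNRF3, the relative of RNF43, had a log2 change of 0.20 ± 0.12 (adjusted p = 0.209), RSPO1 one of -0.60 ± 0.29 (adjusted p = 0.135) and RSPO2 one of 0.05 ± 0.31 (adjusted p = 0.932). LGR6 was not tested, at 0 to 6 counts a library. The difference between LGR5 and LGR4 in their changes was not tested.

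Antagonists outside the cell or on its surface gave 3 falls and 1 rise of 6 tested. DKK3, a relative of DKK1, fell 1.72-fold from 8.27 ± 0.505 to 4.87 ± 0.658 CPM (adjusted p = 0.00189). KREMEN1, a receptor for DKK proteins, fell 1.55-fold to 16.3, 16.5 and 16.5 CPM from 20.8, 26.9 and 28.8 CPM (adjusted p = 0.00161). NOTUM, a deacylase that inactivates WNT ligands and is itself a WNT target, fell 1.69-fold from 10.8 ± 1.74 to 6.42 ± 0.499 CPM (adjusted p = 0.00210). TRABD2B, a membrane protease that cleaves WNT ligands, rose 1.96-fold from 1.77 ± 0.0536 to 3.49 ± 0.184 CPM (adjusted p = 0.00373). These 4 calls were kept with each library left out in turn. SFRP2, WIF1, DKK2 and DKK4 were at 0 in every library.

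The destruction complex and Dishevelled gave 1 called gene of 17 tested, a rise, and the nuclear co-factors of beta-catenin 1 rise and 1 fall of 18. GSK3A, a kinase that phosphorylates beta-catenin, rose 1.19-fold from 95.4 ± 4.72 to 114 ± 6.10 CPM (adjusted p = 0.0290). TNKS, which destabilises AXIN proteins, had a log2 change of -0.23 (adjusted p = 0.0961), DACT3 one of -0.61 (adjusted p = 0.157) and BTRC one of -0.17 (adjusted p = 0.167). TLE4, a Groucho-type co-repressor of TCF factors, rose 1.52-fold from 5.20 ± 0.877 to 7.91 ± 0.438 CPM (adjusted p = 0.0103). PYGO2, a co-activator in the beta-catenin complex, fell 1.17-fold (adjusted p = 0.0396), and TBL1X and TLE2 had log2 changes of -0.24 and -0.21 (adjusted p = 0.0595 and 0.0813). With upper-quartile scaling TBL1X, TLE2 and TNKS were also called lower and GSK3A was not called. TBL1X was called as well with a filter of 1 CPM in 3 libraries (adjusted p = 0.0467). Without a low-count filter neither GSK3A nor PYGO2 was called (adjusted p = 0.0636 and 0.0820).

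Further genes described as direct targets of beta-catenin, many of which have other regulators, moved in both directions. Of 12 tested, 3 rose, 4 fell and 5 were not called, MYC among the last as given above. The median log2 change of the 12 was -0.12. PROX1, a homeobox factor, fell 2.45-fold, from 2.93, 4.69 and 4.14 CPM to 1.56, 1.72 and 1.51 CPM (adjusted p = 0.00146). CD44, a hyaluronan receptor, fell 1.41-fold from 93.5 ± 11.9 to 66.5 ± 3.30 CPM (adjusted p = 0.00214). The ephrin receptors EPHB3 and EPHB2 fell 1.52-fold and 1.76-fold (adjusted p = 0.00494 and 0.0409), and EPHB2 was not called by DESeq2 (adjusted p = 0.0890). TNFRSF19, a TNF receptor family member, rose 1.65-fold from 4.71 ± 0.385 to 7.79 ± 0.359 CPM (adjusted p = 0.00250). ID2, a helix-loop-helix protein, rose 1.52-fold and FOSL1, an AP-1 subunit, 1.92-fold (adjusted p = 0.00641 and 0.0207). SP5, ASCL2, MMP7, FGF20 and CDX1 were at 0 in every library.

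**Figure D4:**
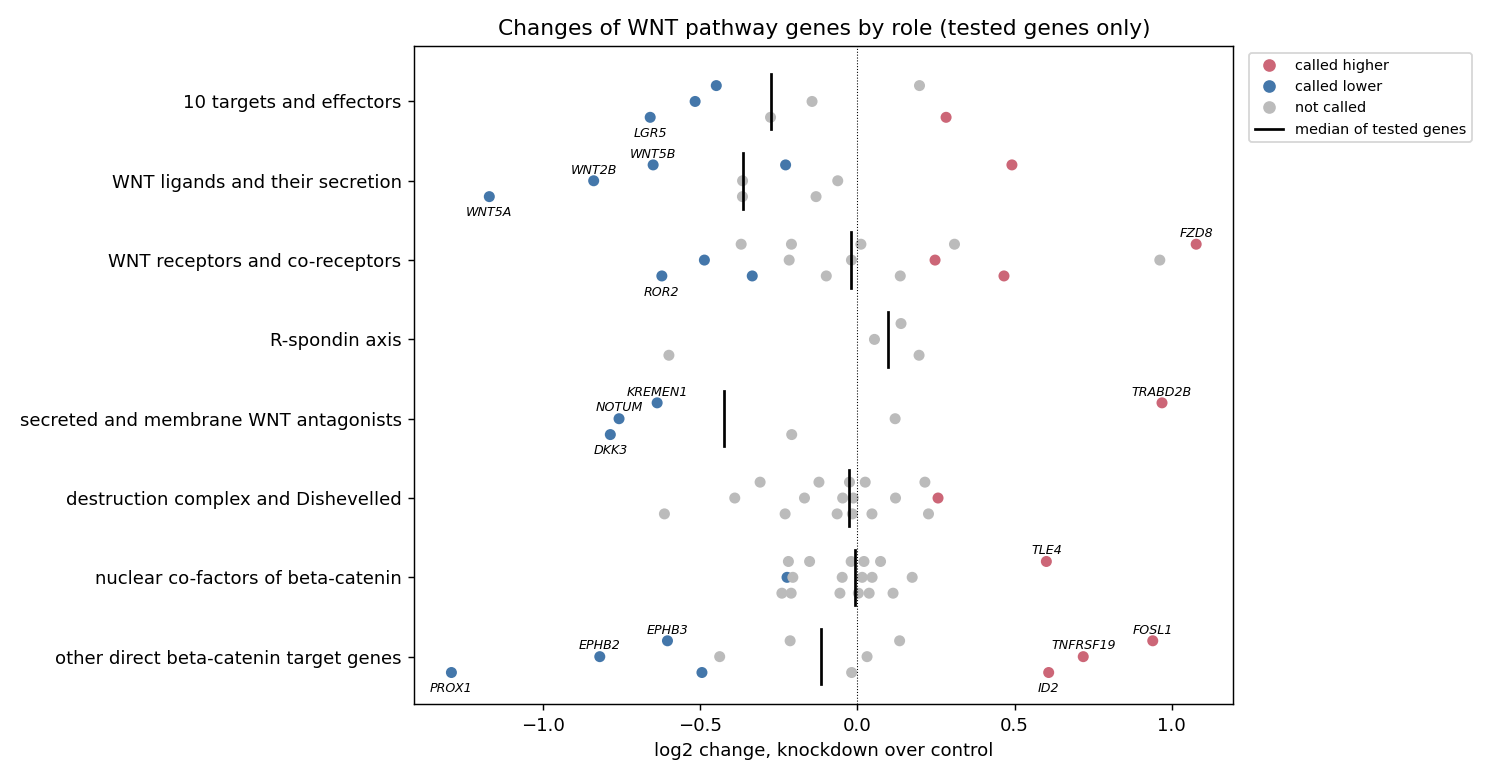
Log2 change of the knockdown over the control (x axis) for each tested gene of the 10 targets and effectors and of 7 pathway lists, with genes called higher in red, called lower in blue and not called in grey, and the median of each list as a bar. Genes called with a change of at least 1.5-fold are named, from PROX1 at -1.29 to FZD8 at 1.08.

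Some of these calls were lost when a single library was left out. Of the 6 fits that each left out 1 library, WNT5B and PYGO2 kept their call in 0, EPHB2 in 1, GSK3A, WLS and FZD7 in 2, FOSL1 in 3 and PTK7 in 4. The adjusted p of TLE4 was 0.0501 without control 3, and over all alternatives its lowest value was 0.00308. That of WNT10B was 0.0885 without control 2, and its lowest value was 0.00369.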

How the data were processed

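Counts of 6 libraries were used as the authors deposited them. Per the submitters' processing notes, the tools were Trim Galore 0.6.4, STAR 2.7.9a and RSEM, and the build was GRCh38.p13. Neither the gene annotation nor the strand setting is given in the sources used here. The deposited counts are whole numbers and are read as RSEM estimates that were rounded, so reads shared by similar genes are divided among them. Libraries were made with a stranded mRNA kit, per the labels' protocols. The 44 pseudoautosomal Y rows were added to their X copies. Coordinates and exon lengths are from GENCODE release 29 (GRCh38, 1-based).

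Knockdown was compared with control in edgeR 4.0.16 under R 4.3.3, by its quasi-likelihood F test (2-sided) after filterByExpr and TMM scaling, with Benjamini-Hochberg adjustment over 14673 genes and a threshold of 0.05. SEs were approximated from the log2 change and the square root of F, and 95% intervals are built on them. Library totals of 7765826 to 20035834 counts limit the precision of low genes. The test was tried on simulated counts. Alternatives used RLE and upper-quartile scaling, other count filters, DESeq2 1.42.0, limma-voom (limma 3.58.1), a replicate block, an adjusted p under 0.01 and each library left out. Of each pathway list, up to 4 genes with the smallest adjusted p and any called gene with a fold of at least 1.5 are named. WLS, FZD7 and PTK7 were added after their values were seen, to complete counts. The members and lists were chosen with earlier results of these data known.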

Additional observations from a re-analysis of the deposited data

How the results depend on the processing

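Of the 10 genes, 3 stayed lower under every scaling, filter, test and the replicate block, and 2 to 3 with 1 library left out. The 1 rise, CTNNB1, was lost with upper-quartile scaling (0 members higher) and at an adjusted p under 0.01 (0 members higher), and with 1 library left out 0 to 1 members were higher and 2 to 4 were called in all. The count of all genes called was 2459 at an adjusted p under 0.01 (1190 higher, 1269 lower) and ran from 2704 to 5114 with 1 library left out (1264 to 2604 higher, 1440 to 2510 lower). It was lowest without control 2, with 2704, and 2891 without control 3. With upper-quartile scaling 1773 genes were higher and 2803 lower, in place of 2328 and 2329, and the median log2 change of all genes was -0.06. Of the pathway genes 15 were called at an adjusted p under 0.01, and at most 30 in place of 25 over the alternatives that kept all 6 libraries. With 1 library left out 16 to 26 were called, 16 without control 2. The share of TCF7 among TCF/LEF factors was higher by 4.31 points in place of 2.48 when counts were not divided by length. The difference in the share of TCF7L1 ran from -1.98 to 0.13 points with 1 library left out and turned to 0.13 without control 3. The uncalled log2 change of RSPO2 was -0.0039 with upper-quartile scaling and ran from -0.07 (-0.0699, without control 1) to 0.17 with 1 library left out. The cause of these changes was not tested.

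With a replicate block 4742 genes and 4 of the 10 were called, in the same directions. Of the members and pathway genes named in the text, PYGO2 and WLS were not called with the block (adjusted p = 0.0704 and 0.0697), TNC was called higher (0.0402), and no other call changed. Deviations of same-numbered libraries from their group means correlated at 0.03, 0.10 and -0.03. With 3 libraries a group, these values cannot show whether libraries of the same number were made in pairs. At these depths, LEF1, DKK1 and RNF43 cannot be compared between the groups.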
